A study of Mus musculus with 29 samples.

Results

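Voltage-gated sodium channel subunits were followed in the caudate nucleus of HdhQ150 mice, which carry an expanded CAG repeat inserted into their own Huntington's disease gene, and of their wild-type littermates. The 7 genes were the auxiliary subunit genes Scn4b, Scn2b and Scn3b and the pore-forming subunit genes Scn1a, Scn2a, Scn3a and Scn8a, out of 19938 genes measured by a probe set with a single gene symbol. The list was written with knowledge of these data, and Scn4b was selected on its fall in the HdhQ150 mice of 12 and 18 months, that is, chosen by the genotype differences at those ages. Its values in the 12 and 18 month mice are therefore descriptions without a test, and it was tested at 6 months alone. RNA of 29 mice on the strain background 129/Ola x C57BL6/J was hybridised to 1 array each, with 5, 5 and 4 wild-type and 5, 6 and 4 HdhQ150 mice at 6, 12 and 18 months. Of the 5 wild-type mice of 6 months 3 were labelled female, of the 5 HdhQ150 mice 4. The label of HdhQ150 mouse 1023, female, is at odds with its sex genes, as given below. At 12 months 4 of 5 wild-type and 4 of 6 HdhQ150 mice were labelled female, and every mouse of 18 months was. Whether 1 or both alleles carried the repeat, and when the arrays were hybridised, was not given in the sources used here.

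A voltage-gated sodium channel is a large alpha subunit that forms the pore and opens on depolarisation, joined by small single-pass beta subunits of the immunoglobulin superfamily that adjust gating, surface delivery and cell adhesion. Scn1a encodes the alpha subunit Nav1.1 of many fast-spiking interneurons, Scn2a encodes Nav1.2 of unmyelinated axons and young initial segments, Scn3a encodes the mainly developmental Nav1.3, and Scn8a encodes Nav1.6 of mature initial segments and nodes. Scn2b and Scn4b encode the beta subunits that bind the alpha subunit through a disulfide bond, whereas the Scn3b product binds without it. The beta4 subunit made by Scn4b can supply the blocking particle of resurgent sodium current and is abundant in striatal projection neurons, the GABAergic output cells that make up most of the caudate nucleus and are lost in Huntington's disease.

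Scn2b and Scn4b are neighbours on mouse chromosome 9, with 0 other gene starts between theirs, and Scn3b lies on the same chromosome. Scn1a, Scn2a and Scn3a are on chromosome 2 and Scn8a is on chromosome 15. The promoter windows of the neighbouring pair are shown because Scn4b was selected on its fall and Scn2b was the one other subunit with a call between genotypes, at 12 months. They run from 250 bases before to 50 bases after the gene start, 5′ to 3′, from RefSeq on GRCm38.p6, on the plus strand at chr9:45138374-45138673 for Scn4b and chr9:45117626-45117925 for Scn2b. Capitals mark CG dinucleotides.
Scn4b: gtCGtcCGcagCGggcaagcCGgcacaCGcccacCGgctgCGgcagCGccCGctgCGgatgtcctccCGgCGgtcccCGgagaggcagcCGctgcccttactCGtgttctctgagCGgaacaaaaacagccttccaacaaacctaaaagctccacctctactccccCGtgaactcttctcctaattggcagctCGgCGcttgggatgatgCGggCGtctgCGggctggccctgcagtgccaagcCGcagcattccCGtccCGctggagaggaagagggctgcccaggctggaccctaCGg
Scn2b: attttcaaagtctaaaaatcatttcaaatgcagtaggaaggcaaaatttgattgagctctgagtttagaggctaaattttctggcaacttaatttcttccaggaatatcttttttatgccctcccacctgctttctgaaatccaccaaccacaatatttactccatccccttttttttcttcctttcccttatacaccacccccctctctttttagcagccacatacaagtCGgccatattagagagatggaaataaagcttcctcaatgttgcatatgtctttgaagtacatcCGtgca
The Scn4b window held 26 CG dinucleotides and 66.3% G or C, and 83.1% of 32851 mouse promoter windows of the same length held fewer CG. The Scn2b window held 2 CG dinucleotides and 38.3% G or C, and 14.1% of windows held fewer. The median window had 7 CG and 52.7% G or C, so the neighbours lay on opposite sides of it. Both strands were searched for GGGCGG (held by 35.7% of windows), TATAAA (13.6%), CCAAT (37.4%), TGACGTCA (1.79%), GCGTGGGCG (0.612%) and CACGTG (7.15%). The Scn4b window had 1 CCAAT and none of the other letters, and the Scn2b window had none of the 6. Windows were also found for Scn1a, Scn2a and Scn8a, with 5 CG in that of Scn1a, 3 and 9 in a pair for Scn2a, and 38 and 12 in a pair for Scn8a.

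Levels are log2 values, so a difference of 1 is a factor of 2. Each probe set has its own scale, so levels of different subunits were not set against each other. The ranks of markers among all genes given below are only rough for the same reason. Htt, the gene that carries the knock-in, was lower in every HdhQ150 mouse than in any wild-type mouse of its age. Its means were 8.77 ± 0.06, 8.65 ± 0.11 and 8.85 ± 0.16 against 9.14 ± 0.03, 9.08 ± 0.13 and 9.16 ± 0.04 (SD, at 6, 12 and 18 months). Of all genes 1.35%, 0.908% and 1.5% were lower in every HdhQ150 mouse at these ages. Htt passed the threshold of 0.05 at 6 and 12 months (limma, adjusted p = 0.00457 and 0.000122), where 0.0251% and 0.938% of all genes passed. At 18 months it did not (limma, adjusted p = 0.0523). A pair of arrays stood apart, WT-454 in its correlation with its group and mouse 1023 in its sex genes. Wild-type mouse WT-454 of 12 months correlated at a mean of 0.945 with the others of its age and genotype, which themselves had 0.975 to 0.978. HdhQ150 mouse 1023 of 6 months is labelled female but had 5.95 for Xist and 8.30 for Eif2s3y, within the range of the labelled males. Mouse 1023 correlated at a mean of 0.985 with the others of its age and genotype, which had 0.986 to 0.988. Markers of striatal projection neurons were high, with 14 of the 15 measured above the level of 90% of genes. Of 9 measured markers of cortical excitatory neurons, Slc17a7 and Nrgn were above 97.8% and 99.4% of genes, and the other 7 were above 39.9% (Neurod6) to 88.2% (Lamp5).

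Scn4b was lower in every HdhQ150 mouse than in every wild-type mouse of the same age, and the difference was -0.51 at 6 months, -0.82 at 12 months and -0.91 at 18 months. At 6 months the wild-type mice had 9.97, 9.99, 10.10, 10.22 and 10.26, and the HdhQ150 mice had 9.12, 9.50, 9.67, 9.76 and 9.96. The highest HdhQ150 mouse lay just below the lowest wild-type mouse, and the HdhQ150 mice were spread more widely, with an SD of 0.32 against 0.13. The difference of -0.51 ± 0.125 (SE), a 1.43-fold lower level, did not pass the threshold of 0.05 (limma, adjusted p = 0.119; unadjusted p = 0.000298). Over the fits that left out 1 mouse the difference lay between -0.60 and -0.39. Among these it passed only without mouse 1023 (limma, adjusted p = 0.0415), where 0.943% of all genes passed. It also passed with arrays weighted by their quality and with mice WT-454 and 1023 both left out, where 6.67% and 4.35% of all genes passed. Every HdhQ150 mouse was lower for 1.35% of all 19938 genes at this age. In the fit with all mice 0.0251% of genes passed in either direction. In a tissue sample, fewer cells of a type and less RNA per cell cannot be told apart.

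At 12 months the wild-type mice had 10.40, 10.52, 10.56, 10.71 and 10.73 for Scn4b, and the 6 HdhQ150 mice ran from 9.50 to 9.94 with a median of 9.79. The group means were 10.58 ± 0.14 and 9.76 ± 0.16 (SD), 1.76-fold apart. At 18 months the wild-type mice had 9.48, 9.78, 9.86 and 10.15, and the HdhQ150 mice had 8.66, 8.87, 8.91 and 9.16. These means were 9.82 ± 0.28 and 8.90 ± 0.20, 1.88-fold apart, and the gap between the nearest mice of the groups was smaller than at 12 months. As these ages chose the gene, the values stand as a description, beside 0.908% and 1.5% of all genes for which every HdhQ150 mouse was lower.

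**Figure D1:**
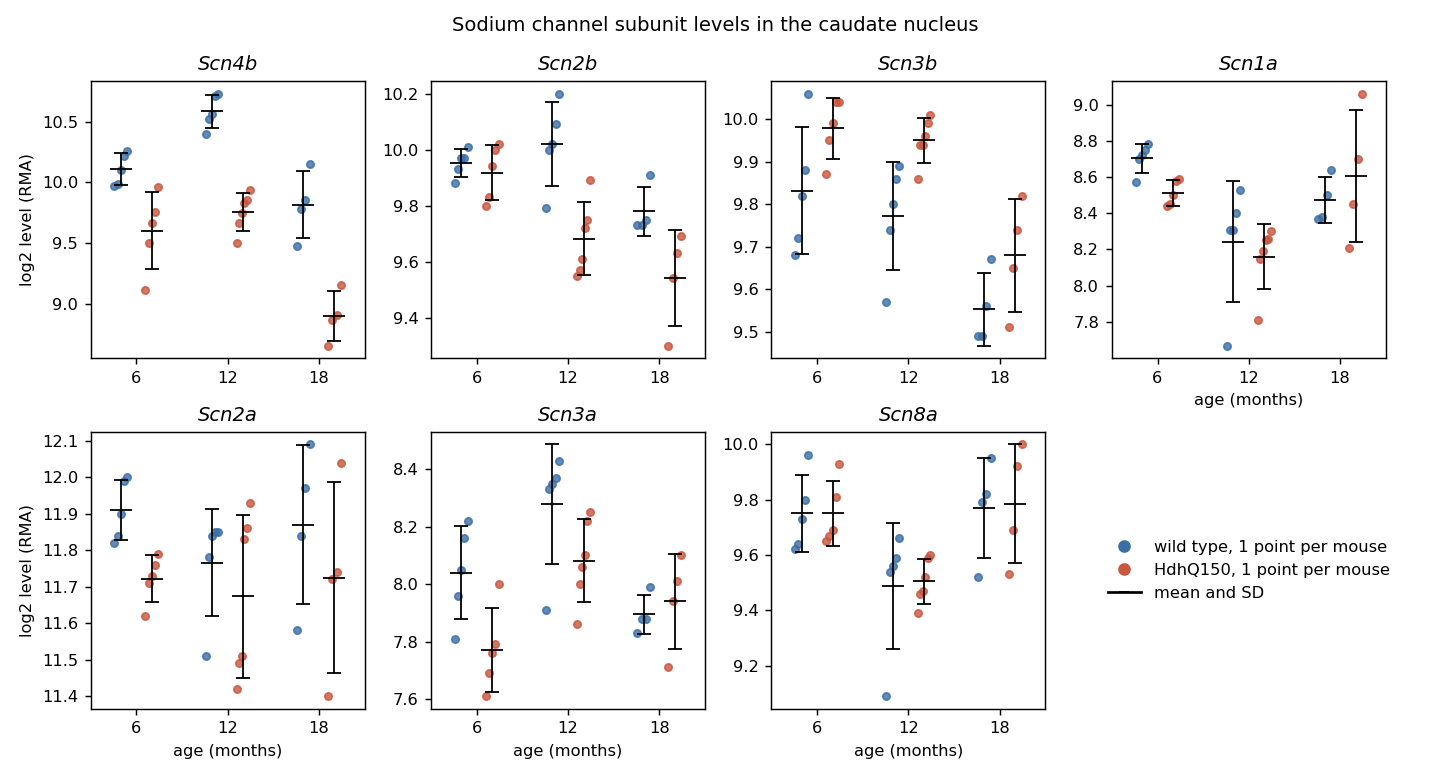
Log2 level of each subunit gene (vertical axis, own scale per panel) against age in months, 1 point per mouse, with the group mean and SD in black. The HdhQ150 points of Scn4b lie below every wild-type point of the same age, those of Scn2b do so at 18 months, and those of Scn8a lie among the wild-type points at every age.

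Scn2b, whose product is the beta2 subunit linked to the alpha subunit by a disulfide bond, fell in HdhQ150 mice at 12 months. The wild-type mice had 9.79, 10, 10.02, 10.09 and 10.20, and the HdhQ150 mice ran from 9.55 to 9.89 with a median of 9.66. The groups overlapped through the lowest wild-type mouse, WT-454, which also stood apart over all genes, and the highest HdhQ150 mouse, 487. The difference was -0.33 ± 0.0689 (SE), a 1.25-fold lower level (limma, adjusted p = 0.0134). It was the only one of the 6 subunits other than Scn4b to pass at this age, when 0.938% of all genes passed and 0.602% passed as lower. The call was lost without HdhQ150 mouse 464 (difference -0.29 to -0.38 over the fits that left out 1 mouse, adjusted p = 0.0514), without wild-type mouse WT-461 (adjusted p = 0.0573), and when only the arrays of 12 months were fitted (adjusted p = 0.083).

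At 6 months Scn2b was 9.88, 9.93, 9.97, 9.97 and 10.01 in wild-type mice and 9.80, 9.83, 9.94, 10 and 10.02 in HdhQ150 mice. The groups ran through each other, and the difference was -0.06 with a 95% interval of -0.20 to 0.09 (adjusted p = 0.791). At 18 months the wild-type mice had 9.73, 9.73, 9.75 and 9.91 and the HdhQ150 mice 9.30, 9.54, 9.63 and 9.69, with no overlap. The difference there was -0.24 ± 0.0799 (SE), with a 95% interval of -0.40 to -0.08, and did not pass (limma, adjusted p = 0.457). At this age 0.135% of all genes passed. Every HdhQ150 mouse was lower for 1.5% of all genes, among them Scn2b and also Scn4b, which this age helped to choose.

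Scn3b, which encodes the beta subunit that binds without a disulfide bond, had higher means in HdhQ150 mice at each age, and no difference passed. At 6 months the wild-type mice had 9.68, 9.72, 9.82, 9.88 and 10.06 and the HdhQ150 mice 9.87, 9.95, 9.99, 10.04 and 10.04. At 12 months the wild-type mice had 9.57, 9.74, 9.80, 9.86 and 9.89, and the HdhQ150 mice ran from 9.86 to 10.01 with a median of 9.95. At 18 months they had 9.49, 9.49, 9.56 and 9.67 against 9.51, 9.65, 9.74 and 9.82. The groups overlapped at every age, at 12 months by a narrow margin. The differences were 0.14 ± 0.0704, 0.18 ± 0.067 and 0.12 ± 0.0778 (SE; limma, adjusted p = 0.370, 0.306 and 0.986), with 95% intervals that reached 0.29, 0.32 and 0.28.

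Among the alpha subunits, Scn8a, the gene of Nav1.6, was the nearest to equal between the genotypes. Its means were 9.75 ± 0.14, 9.49 ± 0.23 and 9.77 ± 0.18 (SD) in wild-type mice and 9.75 ± 0.12, 9.51 ± 0.08 and 9.78 ± 0.22 in HdhQ150 mice. The 95% intervals of the difference were -0.22 to 0.18, -0.16 to 0.22 and -0.20 to 0.23 at 6, 12 and 18 months, and the sign turned between ways of fitting. Scn1a, the gene of Nav1.1, had 8.57 to 8.78 in wild-type mice and 8.44 to 8.59 in HdhQ150 mice at 6 months, with an overlap of these ranges and a difference of -0.21 ± 0.126 (SE; limma, adjusted p = 0.461). At 12 months its lowest values were 7.67 in wild-type mouse WT-454 and 7.81 in HdhQ150 mouse 462, with the other mice between 8.15 and 8.53. At 18 months its difference was 0.13 ± 0.14, with HdhQ150 mice spread from 8.21 to 9.06 and adjusted p = 0.993 (limma). Leaving out HdhQ150 mouse 426, the highest, turned that difference to -0.02, so no direction is given for Scn1a.

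Scn3a, the gene of Nav1.3, had 7.81, 7.96, 8.05, 8.16 and 8.22 in wild-type mice at 6 months and 7.61, 7.69, 7.76, 7.79 and 8.0 in HdhQ150 mice. The HdhQ150 mouse at 8.0 was mouse 1023, and the other 4 lay below every wild-type mouse. The difference of -0.29 ± 0.0943 (SE) did not pass (limma, adjusted p = 0.184; unadjusted p = 0.00494). It passed with arrays weighted by their quality (adjusted p = 0.0138) and with mice WT-454 and 1023 both left out (adjusted p = 0.029). Under these settings 6.67% and 4.35% of all genes passed. At 12 months the difference was -0.18 ± 0.0897 and at 18 months 0.05 ± 0.104, neither past the threshold (limma, adjusted p = 0.561 and 0.993).

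**Figure D2:**
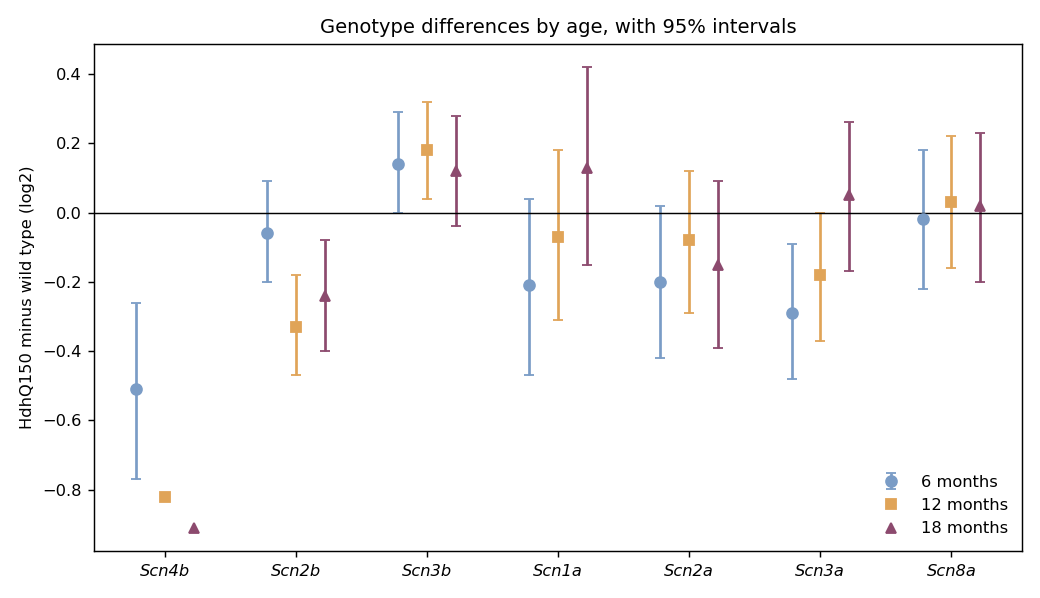
HdhQ150 minus wild type on the log2 scale (vertical axis) for each subunit gene at 6, 12 and 18 months, with the 95% interval of the fit. Scn4b at 12 and 18 months is drawn without an interval, as these ages chose it, and lies at -0.82 and -0.91, while the intervals of Scn8a include 0 at all ages.

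Scn2a, the gene of Nav1.2, was covered by 14 probe sets with that symbol alone, and the one with the highest average, 10472400, stands for the gene. At 6 months it read 11.82, 11.84, 11.90, 11.99 and 12.00 in wild-type mice and 11.62, 11.71, 11.73, 11.76 and 11.79 in HdhQ150 mice. The groups did not overlap, as for 1.35% of all genes with every HdhQ150 mouse lower at this age. The difference of -0.20 ± 0.106 (SE) did not pass (limma, adjusted p = 0.401). At 12 months wild-type mice had 11.51 to 11.85 and HdhQ150 mice 11.42 to 11.93, and at 18 months they had 11.58 to 12.09 and 11.40 to 12.04. The spread at these ages was wider than the differences of -0.08 and -0.15 (adjusted p = 0.956 and 0.993).

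The other Scn2a probe sets differed among themselves at 6 months. Over the 14, the genotype difference ran from -0.59 to 0.10 with a median of -0.16, and 12 were below 0. Probe sets 10472368, 10472370, 10472376 and 10472378 had differences of -0.57, -0.59, -0.57 and -0.52. Probe set 10472368, for instance, read 9.78 ± 0.10 (SD, range 9.65 to 9.89) in wild-type mice and 9.25 ± 0.23 (9.0 to 9.56) in HdhQ150 mice. Probe set 10472378 read 9.92 ± 0.04 against 9.44 ± 0.23. For 5 of the 14 every HdhQ150 mouse was below every wild-type mouse, against 1.38% of all 35556 probe sets. None of the 14 passed when p was adjusted over all probe sets (limma, lowest adjusted p = 0.196), and 3 of 35556 did, or 0.00844%, with 0.405% and 0.0506% passing at 12 and 18 months, none of them among the 14. At 12 months the 14 differences lay between -0.11 and 0.09 and at 18 months between -0.16 and 0.09, and the 4 probe sets named above ran from -0.11 to 0.05 and from -0.16 to 0.00 there. In wild-type mice all 14 were lower at 12 than at 6 months, with differences of -0.64 to -0.07. Of these 2 passed by limma, where 7434 of 35556 probe sets did. Probe sets 10472368, 10472370, 10472376 and 10472378 had -0.43, -0.46, -0.64 and -0.34 there, and none of these 4 passed. The part of this age difference in the genotype differences was not tested. The probe sets share mice and a transcript and are not replicates, and which exons they cover was not analysed here.

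**Figure D3:**
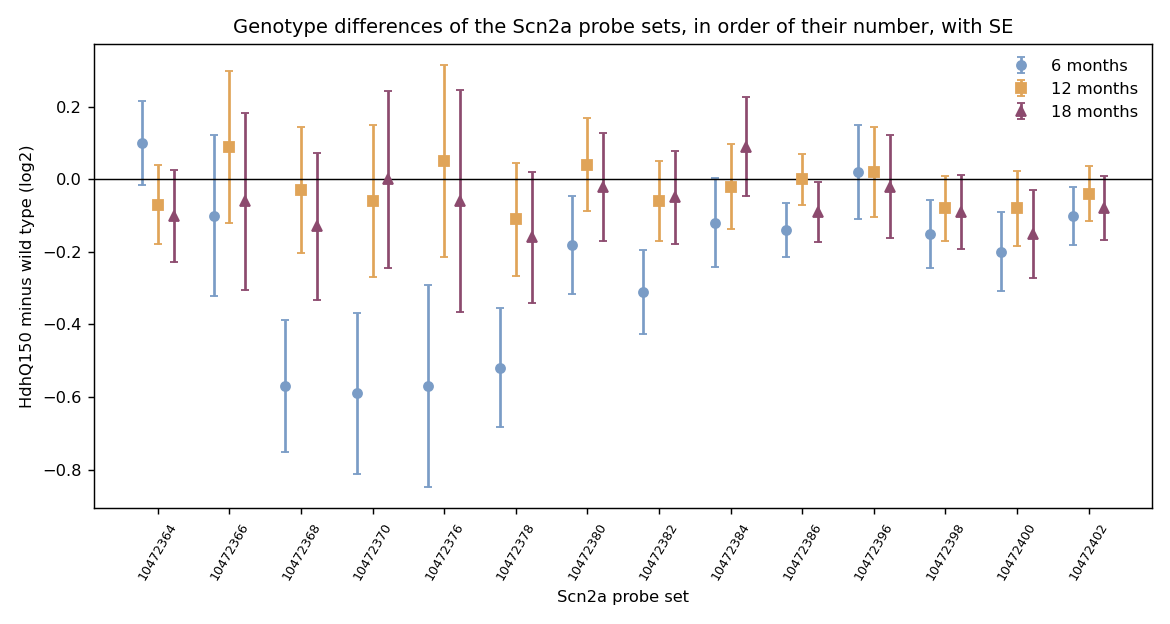
HdhQ150 minus wild type on the log2 scale (vertical axis) for the 14 Scn2a probe sets in order of their number (horizontal axis), with the SE of the fit, at 6, 12 and 18 months. At 6 months 4 probe sets lie between -0.59 and -0.52 and the others between -0.31 and 0.10, while at 12 and 18 months all lie between -0.16 and 0.09.

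Over all comparisons between genotypes, 0 of 7 subunits passed at 6 months, 1 of 6 at 12 months and 0 of 6 at 18 months, with Scn4b left out of the later ages. The limma counts at an unadjusted p under 0.05 were 2 (Scn4b and Scn3a), 2 (Scn2b and Scn3b) and 1 (Scn2b), where 13.7%, 8.98% and 5.81% of all genes had such a p. The median difference of the 7 subunits was -0.20, -0.08 and 0.02, beside 0.0062, 0.0059 and -0.0037 over all genes. These medians include Scn4b at every age, so those of 12 and 18 months are a description. No change of a genotype difference between ages passed for the 6 subunits tested. The unadjusted limma p was under 0.05 for 1 of them from 6 to 12 months (Scn2b, -0.27 ± 0.101, adjusted p = 0.709) and 1 from 6 to 18 months (Scn3a, 0.33 ± 0.141, adjusted p = 0.610). Of all genes 0.00502% passed from 6 to 12 months and 0% in the other 2 comparisons, with 6.51%, 2.07% and 8.17% at an unadjusted p under 0.05 from 6 to 12, 12 to 18 and 6 to 18 months. For Scn4b the genotype difference changed by -0.31 from 6 to 12 months and by -0.40 from 6 to 18 months, a description without a test, since the later ages chose the gene.

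More subunits passed between ages than between genotypes, with 5 calls over the 3 age comparisons in wild-type mice and 6 in HdhQ150 mice, and more genes in general did. These comparisons share arrays, since each age serves in 2 of them, and the ages were not balanced in sex or known to be hybridised together, so handling and age cannot be told apart. In wild-type mice Scn1a fell by 0.48 from 6 to 12 months (SE 0.126; limma, adjusted p = 0.00609) and Scn8a fell by 0.28 (SE 0.0964; adjusted p = 0.0315). Both calls were lost without mouse WT-454, when the differences were -0.31 (adjusted p = 0.0665) and -0.16 (adjusted p = 0.246), and that of Scn8a also without wild-type mouse WT-1004 or WT-1011 (adjusted p = 0.072 and 0.0761). These were 2 of 6 subunits, where 25.7% of all genes passed and 12.6% passed as lower. In HdhQ150 mice over the same interval, Scn1a fell by 0.34 (SE 0.12; adjusted p = 0.0424), with 8.44 to 8.59 at 6 months and 7.81 to 8.30 at 12 months and no overlap, as for 7.38% of all genes. That call was lost without any 1 of HdhQ150 mice 453, 462, 526, 1001, 1003, 1016 or 1023, with an adjusted p of 0.0523 to 0.133. The Scn8a difference was -0.23, with adjusted p = 0.0706, and 0.0241 without mouse WT-454.

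Scn3a moved the other way between 6 and 12 months. In HdhQ150 mice it rose by 0.32 (SE 0.0897; limma, adjusted p = 0.00976), from 7.77 ± 0.14 to 8.08 ± 0.14 (SD), and passed in every fit that left out 1 mouse. In wild-type mice it was 0.22 higher (adjusted p = 0.0853), or 0.33 higher without mouse WT-454 (adjusted p = 0.0134). Scn2b fell by 0.22 in HdhQ150 mice (adjusted p = 0.0197), while in wild-type mice it differed by 0.05 (95% interval -0.10 to 0.20, adjusted p = 0.637). The Scn2b call was lost without HdhQ150 mouse 464 or 1016 (adjusted p = 0.0545 and 0.0524). With Scn1a lower, 3 of 6 subunits passed in HdhQ150 mice, where 23.1% of all genes did, 11.9% as higher and 11.2% as lower. Scn4b was 0.47 higher at 12 than at 6 months in wild-type mice, with every 12 month mouse above every 6 month mouse, as for 6.35% of all genes, and 0.16 higher in HdhQ150 mice with overlap.

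From 12 to 18 months the auxiliary subunits were lower in both genotypes. Scn3b fell by 0.28 in HdhQ150 mice (SE 0.0733; limma, adjusted p = 0.0182), the only call of 6 there, where 5.79% of all genes passed and 1.61% as lower, and was 0.22 lower in wild-type mice (adjusted p = 0.0837, and 0.0171, 0.0495 and 0.0358 without mouse WT-454, WT-431 or WT-1004). Without HdhQ150 mouse 412 its adjusted p was 0.138. Scn2b fell by 0.26 in wild-type mice (SE 0.0766; adjusted p = 0.0347) and was 0.18 lower in HdhQ150 mice (adjusted p = 0.193). The wild-type call was lost without any 1 of mice WT-461, WT-488, WT-508, WT-527, WT-400, WT-414 or WT-431, with an adjusted p of 0.0533 to 0.111. Scn3a fell by 0.40 in wild-type mice (SE 0.0999; adjusted p = 0.0122), from 8.28 ± 0.21 to 7.90 ± 0.07 (SD), and passed in every fit that left out 1 mouse. These were 2 of 6 subunits in wild-type mice, where 5.87% of all genes passed and 2.07% passed as lower. Scn1a was 0.20 higher in wild-type mice (adjusted p = 0.539) and 0.40 higher in HdhQ150 mice (adjusted p = 0.0695), passing without mouse WT-454 (0.00847) or 415 (0.0116). Scn8a was 0.26 and 0.24 higher (adjusted p = 0.163 and 0.178), passing in wild-type mice without mouse WT-431 (0.0478) and in HdhQ150 mice without mouse WT-454 (0.0471). Scn4b was 0.78 lower in wild-type and 0.87 lower in HdhQ150 mice, with no overlap between the ages in either, beside 2.54% and 3.41% of all genes with every older mouse lower.

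From 6 to 18 months Scn3b fell in both genotypes, by 0.28 in wild-type mice (SE 0.0769; limma, adjusted p = 0.0247) and by 0.30 in HdhQ150 mice (SE 0.0746; adjusted p = 0.016), and in neither did the ages overlap, where 4.36% and 4.24% of all genes had every older mouse lower. The HdhQ150 call was lost without mouse 412 (adjusted p = 0.0862) and the wild-type call without any 1 of mice WT-400, WT-401, WT-414, WT-1004 or WT-1020 (adjusted p of 0.0504 to 0.0883). Scn2b fell by 0.40 in HdhQ150 mice (SE 0.0766; adjusted p = 0.00284), from 9.92 ± 0.10 to 9.54 ± 0.17 (SD) without overlap, and passed in every fit that left out 1 mouse. In wild-type mice it was 0.22 lower (95% interval -0.38 to -0.05, adjusted p = 0.0971). The difference between these changes was -0.18 with an interval of -0.40 to 0.04 and did not pass (limma, adjusted p = 0.648). In all, 1 of 6 subunits passed in wild-type and 2 of 6 in HdhQ150 mice, where 6.27% and 4.65% of all genes did, 2.95% and 2.37% as lower. Scn1a, Scn2a, Scn3a and Scn8a passed in neither genotype over this span.

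**Figure D4:**
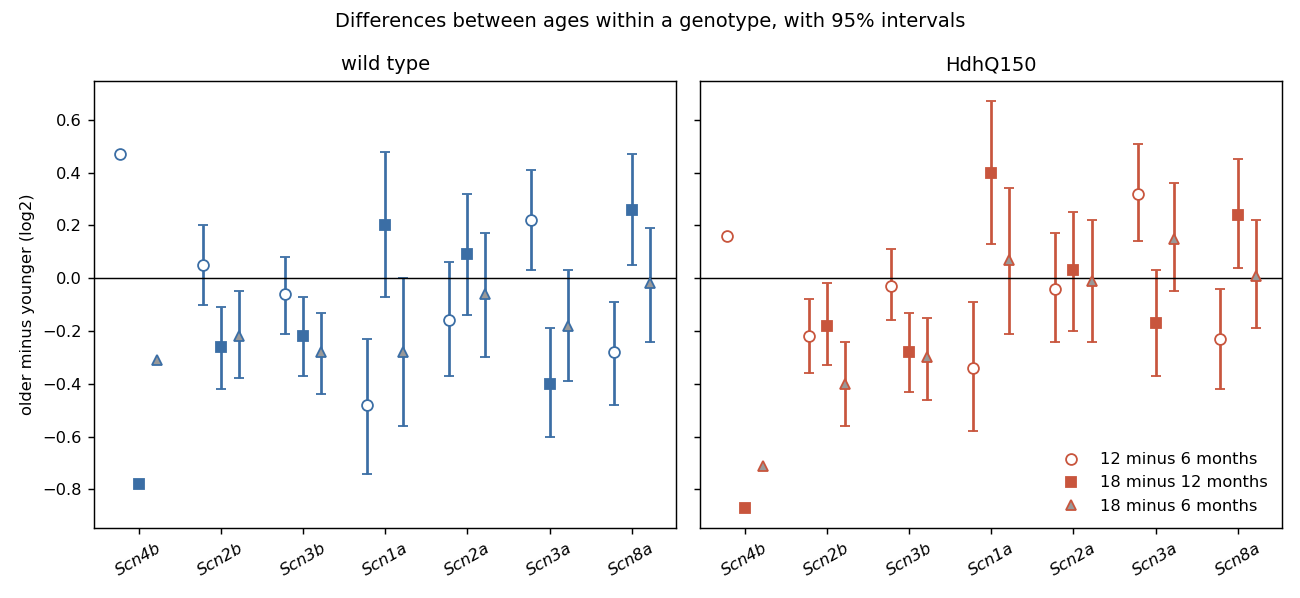
Older minus younger on the log2 scale (vertical axis) for each subunit gene in wild-type (left) and HdhQ150 mice (right), with the 95% interval of the fit except for Scn4b. Scn1a and Scn8a lie below 0 from 6 to 12 months and above 0 from 12 to 18 months, Scn3a does the opposite, and Scn3b lies near 0 from 6 to 12 months and at -0.22 and -0.28 from 12 to 18 months.

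Markers of cortical excitatory neurons moved with age beside these values. The mouse means over the 9 measured of 10 ran from 8.55 to 9.34 at 6 months, 7.55 to 8.71 at 12 months and 8.55 to 9.45 at 18 months over both genotypes. The 7 measured fast-spiking interneuron markers ran from 8.54 to 8.76, 8.13 to 8.45 and 8.47 to 8.87. Both sets were low at 12 months, as Scn1a and Scn8a were, and their part in the age differences was not tested. Between genotypes, 0 markers of either list passed at any age. At 12 months, where Scn2b was called, 7 of 9 cortical and 5 of 7 interneuron markers were lower in HdhQ150 mice, with medians of -0.1 and -0.087. An unadjusted limma p under 0.05 was found for 3 of them. These were Slc17a7, a vesicular glutamate transporter (-1.03, adjusted p = 0.406), and Tbr1, a cortical transcription factor (-0.78, adjusted p = 0.434). The last was Kcnc2, a potassium channel of fast-spiking cells (-0.36, adjusted p = 0.454). The cortical marker Neurod6 had a larger difference than Kcnc2, at -0.49, without such a p (limma, adjusted p = 0.819). The cortical mouse means were 8.28 ± 0.33 (SD) in wild-type and 7.98 ± 0.38 in HdhQ150 mice of that age, and their part in the Scn2b difference was not tested.

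Markers of striatal projection neurons moved with Scn4b. Of the 15 measured (of 17), 12, 14 and 15 had a difference below 0 at 6, 12 and 18 months, with medians of -0.21, -0.29 and -0.44. The 1 marker above 0 at 12 months had a difference of 0.33. At that age 4 of the 15 fell, where 0.602% of all genes passed as lower. They were Penk, the enkephalin precursor (-0.51), Pde10a, a phosphodiesterase (-0.49), Gpr6, an orphan receptor (-0.50), and Adcy5, an adenylyl cyclase (-0.38). At 18 months Penk (-0.73), Pde10a (-0.61) and Gpr6 (-0.71) fell, where 0.135% of all genes passed. At 6 months 0 of the 15 passed, and 8 had an unadjusted limma p under 0.05, beside 13.7% of all genes. The Penk and Pde10a calls held in every fit that left out 1 mouse, and those of Gpr6 were lost in 5 such fits at 12 months and 3 at 18 months and that of Adcy5 in 2 (adjusted p up to 0.0881, 0.105 and 0.0823). The mouse means over the 15 were 10.42 to 10.72 in wild-type and 10.10 to 10.55 in HdhQ150 mice at 6 months, 10.81 to 10.94 and 10.52 to 10.67 at 12 months, and 10.30 to 10.53 and 9.85 to 10.29 at 18 months. The genotypes overlapped at 6 months alone. At 6 months the Scn4b difference of -0.51 stood beside a lowest single marker difference of -0.42. At 12 and 18 months these were -0.82 and -0.91 beside -0.51 and -0.73, a description only, since these ages chose Scn4b. The part of the marker shift in the Scn4b and Scn2b differences was not tested.

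**Figure D5:**
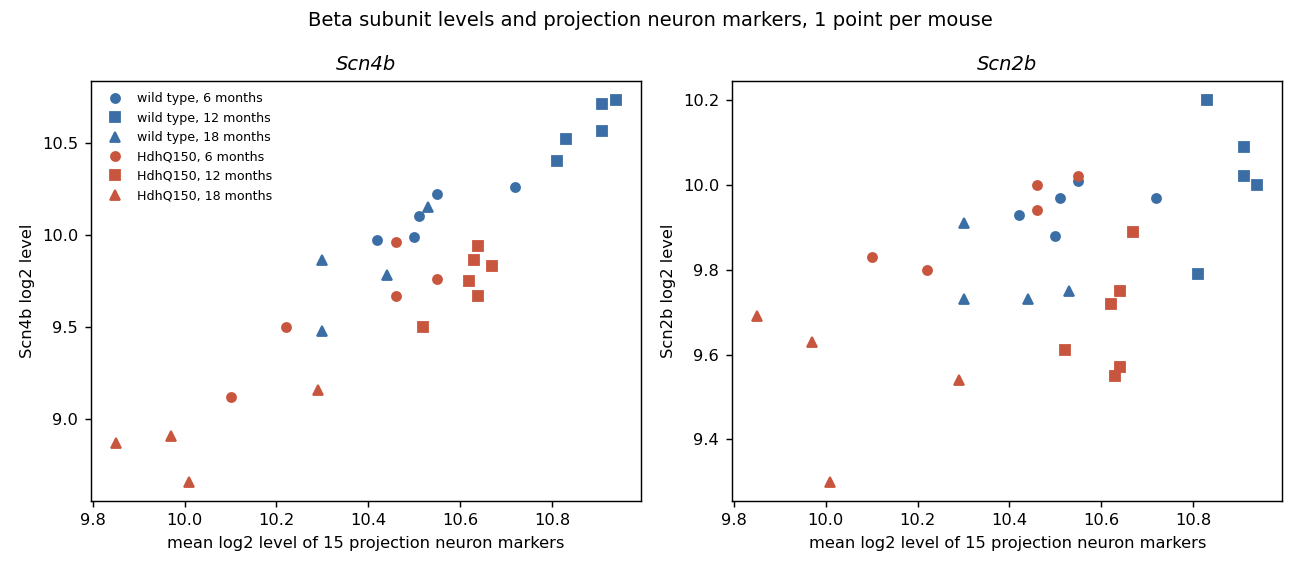
Log2 level of Scn4b (left) and Scn2b (right) against the mean log2 level of 15 measured projection neuron markers (horizontal axis), 1 point per mouse, by genotype and age. HdhQ150 mice of 18 months reach the lowest marker means, at 9.85 to 10.29. The Scn4b values of 12 and 18 months chose the gene and are shown as a description.

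Of 7 measured oligodendrocyte markers 6 were higher in HdhQ150 mice at 12 and at 18 months, with medians of 0.21 and 0.27, and 0 passed. Among 8 precursor markers Olig1 rose at 12 months (0.37, limma, adjusted p = 0.0168), a call lost without mouse WT-454, 462, 464 or WT-527 (adjusted p = 0.0605, 0.0513, 0.0519 and 0.0537). None of the 8 astrocyte, 8 microglia or 8 choroid plexus markers passed at any age. The median differences at 6 months were -0.12, 0.14 and -0.23 for these lists, with all 8 choroid plexus markers below 0. At 18 months Ttr, the transthyretin gene that is abundant in choroid plexus, had a difference of 0.82 with an SE of 1.0 (limma, adjusted p = 0.993). The part of these markers in the subunit differences was not tested.

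Across the 29 arrays, the genes with the pattern nearest to Scn4b were Pde10a (Pearson r = 0.948), Rasgrp2 (0.924), Penk (0.918), Gpr52 (0.914) and Traip (0.910). Within groups, after group means and sex were taken out, r was 0.771, 0.806, 0.455, 0.703 and 0.471. Without mice WT-454 and 1023 the pooled values were 0.914 to 0.946. Gpr52 had genotype differences of -0.53, -0.58 and -0.72 and Rasgrp2 of -0.26, -0.41 and -0.52. The nearest to Scn2b were Osbpl8 (0.856), Rhobtb2 (0.837) and Ago4 (0.816), none of them among the 5 given for Scn4b. For Scn3b they were Pogz (0.876), Isoc1 (0.842) and Ust (0.826), for Scn1a Pfkm (0.880), Chpt1 (0.875) and Ttc39b (0.871), and for Scn2a Lrig2 (0.824), Ube2v2 (0.817) and Mad2l1 (0.810). For Scn3a they were Ppp1r9a (0.919), Tpm1 (0.913) and Klhl2 (0.894), and for Scn8a Ptprj (0.929), Arhgap42 (0.916) and Sgtb (0.913). The arrays share group means and the RNA of a sample, so these values only describe likeness.

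Among the 21 pairs of subunits, 3 had r over 0.6, which were Scn4b with Scn2b (0.74), Scn1a with Scn8a (0.74) and Scn4b with Scn3a (0.61). Within groups these were 0.44, 0.56 and 0.54. Other pairs were higher there, namely Scn2b with Scn2a (0.63), Scn2b with Scn3a (0.62), Scn2a with Scn3a (0.62) and Scn2b with Scn8a (0.59). Over all arrays Scn3b had r between -0.19 and 0.19 with each of the other 6. Within groups its r ran from 0.0 with Scn8a to 0.37 with Scn3a. The chromosomal neighbours Scn4b and Scn2b differed between genotypes by -0.51, -0.82 and -0.91 for Scn4b and by -0.06, -0.33 and -0.24 for Scn2b, in order of age.

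The other genes of sodium channel biology were read from 5 lists with 59 of 69 genes measured. By limma, 0 passed at 6 or 18 months and 1 fell at 12 months, with 10, 8 and 4 at an unadjusted limma p under 0.05 at 6, 12 and 18 months, beside the 13.7%, 8.98% and 5.81% of all genes given above. The median difference was 0.013, 0.022 and 0.011. The gene that fell was S100a10, whose product p11 brings some sodium channels to the cell surface, from 8.73 ± 0.35 to 8.15 ± 0.31 (SD; -0.56 ± 0.136 SE, limma, adjusted p = 0.041). That call was lost without any 1 of mice 451, 453, 462, 464, 526, WT-461, WT-508 and WT-527 of 12 months or 1016 and WT-1018 of 6 months, with an adjusted p of 0.0502 to 0.153. Of the 13 measured binding and modulating proteins, Calm2, a calmodulin gene, had a difference of -0.36 at 6 months (adjusted p = 0.130), and Nedd4l, a ubiquitin ligase of channels, had -0.17 and -0.19 at 12 and 18 months (adjusted p = 0.372 and 0.725).

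None of 20 axon initial segment and node genes passed. Nfasc, a neurofascin adhesion molecule, differed by 0.23 at 6 months (adjusted p = 0.199) and Cntn2, a contactin, by 0.19, 0.18 and 0.18 (adjusted p = 0.250, 0.329 and 0.833). None of 8 secretase genes, whose products cleave beta subunits, passed, and Bace1 differed by 0.18 at 6 months (adjusted p = 0.255). None of 14 voltage-gated calcium channel genes passed either. Cacna1e, the gene of R-type channels, had differences of -0.20 at 12 months and -0.27 at 18 months (limma, adjusted p = 0.0878 and 0.125). At 18 months its groups did not overlap, as for 1.5% of all genes with every HdhQ150 mouse lower. Of the other sodium channel genes, Scn7a, Scn9a, Scn10a and Scn11a were measured and differed by between -0.11 and 0.19 at the 3 ages, with 0 passing and the smallest unadjusted limma p at 0.134 for Scn9a at 12 months.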

How the data were processed

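The deposited values are log2 levels; for how the authors made them, the submitters' processing notes name RMA and Affymetrix Expression Console without versions; RMA options and hybridisation dates were not given in the sources used here. Arrays of 29 mice had medians of 6.91 to 7.05, and their number limits the precision. Of 35556 probe sets, 21789 had 1 gene symbol, and the probe set with the highest mean stood for each of 19938 genes, chosen alike for all. The test was limma 3.58.1 under R 4.3.3 (lmFit on 6 group means and labelled sex, contrasts, eBayes with trend, 22 residual degrees of freedom), two-sided, with Benjamini-Hochberg adjustment over all 19938 genes at a threshold of 0.05 and no fold threshold. The fit was tested on simulated data. Genes named are the 7 subunits, Htt, the other sodium channel genes, and of each further list up to 4 genes per comparison with the smallest p; likeness took the 3 to 5 genes with the highest Pearson r. Members and lists were chosen with earlier results of these data known. Scn4b was also left untested between ages, since the mice of 12 and 18 months chose it. Alternatives were no sex term, labelled females alone, array weights, the upper 50% of genes by mean, only the groups compared, centred arrays and all probe sets. Mouse 1023 stayed among the labelled females. Further alternatives were mouse 1023 entered as male, mice WT-454 and 1023 both left out, the next Scn2a probe set, and each mouse left out in turn. Promoters are RefSeq's, on GRCm38.p6, found for 5 of the 7 genes.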

Additional observations from a re-analysis of the deposited data

Results flagged for a closer look

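In 6 of 42 groups of mice, counted over the 7 subunits, the highest or lowest mouse lay farther from the rest than Dixon's 95% limit allows, and chance gives about 1 in 20. Of these, 4 were wild-type mouse WT-454 of 12 months, which was lowest for Scn1a at 7.67 (the others 8.31 to 8.53), for Scn2a at 11.51 (11.78 to 11.85), for Scn3a at 7.91 (8.33 to 8.43) and for Scn8a at 9.09 (9.54 to 9.66). All 4 alpha subunits were thus low in the array that also stood apart over all genes. HdhQ150 mouse 462 of 12 months was lowest for Scn1a at 7.81 (8.15 to 8.30). Wild-type mouse WT-401 of 18 months was highest for Scn2b at 9.91 (9.73 to 9.75).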

How the results depend on the processing

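No paired analysis was possible because the labels give no litters and the groups share no mouse numbers. No fit changed the sign of a Scn4b, Scn2b, Scn3b or Scn2a genotype difference at any age, and Scn4b stayed between -0.60 and -0.39, -0.89 and -0.76, and -1.03 and -0.80 at 6, 12 and 18 months. Array weights, and leaving out mice WT-454 and 1023 together, gave 2 subunits past the threshold at 6 months under each, Scn4b and Scn3a, against 0. The same settings gave 7 and 5 genes of the 5 lists at 6 months against 0, and 7 and 5 at 12 months against 1. They also called 1330 and 868 of all genes at 6 months against 5, and 3.29% and 2.55% of them at 12 months against 0.938%. Fitting only the groups compared gave 0 subunits at 12 months against 1, and 11, 103 and 1 of all genes at 6, 12 and 18 months. The 12 month list count was 0 with labelled females alone, with only the groups compared, with centred arrays and with all probe sets. It was 2 with the upper 50% of genes. Labelled females alone gave 3 wild-type age calls against 5. Of all genes at 6 months, 3 passed without a sex term, with the upper 50% of genes and centred. The same number passed with all probe sets and with mouse 1023 as male. With labelled females alone, mouse 1023 among them, 2 passed. At 18 months 43 passed without both mice, against 27. Leaving out 1 mouse gave 0 to 1 subunits at 6 and at 12 months and 0 at 18 months, 0 to 2, 0 to 4 and 0 to 1 list genes, 3 to 6 wild-type and 4 to 9 HdhQ150 age calls, and 0 changes of a genotype difference. Scn8a turned sign with array weights (0.04 and -0.05 at 6 and 12 months), without both mice (0.01 and -0.08), with females alone (-0.08 at 12 months), and without 1 mouse (0.00 to 0.03 at 6 months for 1001, 1017, WT-1004 or WT-1011; -0.08 at 12 months for WT-454; -0.06, -0.03 and -0.07 at 18 months for 412, 426 and WT-431). Scn1a turned to 0.02 without 462 at 12 months, in a range of -0.23 to 0.02, and to -0.02 without 426 at 18 months, in a range up to 0.26, and Scn3a to -0.01 without 415 at 18 months, in a range up to 0.12. The Scn8a ranges over the fits that left out 1 mouse were -0.07 to 0.03, -0.08 to 0.07 and -0.07 to 0.10. The split of higher calls moved under centring from 20.0% to 33.3% of all genes called at 6 months (1 higher call of 5 and 1 of 3), from 51.0% to 36.0% and 53.0% to 41.4% in wild-type mice from 6 to 12 and 6 to 18 months, and from 51.6% to 33.5% and 49.0% to 30.9% in HdhQ150 mice. Leaving out 1 mouse gave 3 to 188, 115 to 440 and 15 to 41 of all genes at 6, 12 and 18 months, with the most without 1023 at 6 months, WT-454 at 12 months, and either WT-454 or 415 at 18 months. The cause was not tested.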
